A study of Mus musculus with 38 samples.

Results

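FosB binding was compared between cortical neurons depolarised with KCl and the same cultures left silenced, in 4 of the 38 samples of the series. The 4 samples are the FosB libraries made with antibody sc48 and no shRNA, 1 after KCl and 1 unstimulated from each of biological samples 3 and 4. They are called culture 3 and culture 4 here. All neurons came from the cortex of C57BL/6 mouse embryos at day 16.5 and were taken at day 7 of culture. Before the experiment both arms were kept overnight in 1 µM TTX, a sodium channel blocker, and 100 µM DL-AP5, an NMDA receptor antagonist. KCl neurons were then depolarised for 2 h, and unstimulated neurons were harvested from the silenced state. The unstimulated neurons are therefore drug-silenced cells. The labels give neither the number of embryos per culture nor the make-up of the cultures, and neuronal identity was not checked against marker genes. FosB lists from 4 further libraries, KCl with FosB shRNA and KCl with control shRNA in biological samples 5 and 6, were used for comparison. Those from c-Fos and JunB antibodies were used in the same way, within the series' 22 lists for AP-1 proteins.

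FosB is a Fos family protein that binds DNA as a dimer with a Jun partner such as JunB, the complex known as AP-1. Its gene is an activity-regulated gene, switched on in neurons by depolarisation and calcium entry, as is that of its relative c-Fos. AP-1 in neurons binds largely at enhancers away from promoters, where acetylation of histone H3 at lysine 27 (H3K27ac) marks active elements.

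Many more FosB peaks were listed after KCl than without it, in both cultures. The KCl lists held 10898 peaks in culture 3 and 4899 in culture 4, against 4229 and 2041 in the unstimulated lists. The ratio within a culture was 2.58 in culture 3 and 2.40 in culture 4, and the mean log2 difference was 1.31 ± 0.07 (SD of the 2 paired differences). The 4 lists did not overlap in length between the conditions, but the gap between cultures was nearly as wide as that between conditions: the KCl list of culture 4 was little longer than the unstimulated list of culture 3. An exact two-sided permutation test over the libraries gave p = 0.33, the smallest that 2 against 2 allows. The lists hold no reads, so the depth of each library is unknown, and list length moves with depth as well as with binding.

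The peaks were sorted within each culture. A gained peak is a KCl peak that overlapped no unstimulated peak of its culture by 1 bp, a kept peak is a KCl peak that did, and a lost peak is an unstimulated peak that overlapped no KCl peak. In culture 3, 9283 of the 10898 KCl peaks were gained (85.2%, Wilson 95% interval 84.5 to 85.8%) and 1615 were kept. In culture 4, 4213 of the 4899 KCl peaks were gained (86.0%, 85.0 to 86.9%) and 686 were kept. The gained share averaged 85.6% ± 0.58 (SD, n = 2 cultures), so the cultures were close in this respect. Lost peaks made up 2635 of the 4229 unstimulated peaks of culture 3 (62.3%) and 1358 of the 2041 of culture 4 (66.5%), an average of 64.4% ± 2.99 (SD, n = 2). Most unstimulated peaks were thus absent from the KCl list of their own culture, though this did not hold among the higher-scoring ones described below. Intervals here and below cover counting error alone, since peaks are not replicate cultures. These shares depend on list length. With the longer list of each culture shortened to its best-scoring peaks, to match the other in length, the gained share was 76.9% in culture 3 and 77.4% in culture 4, and the lost share 76.5% and 77.1%.

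**Figure D1:**
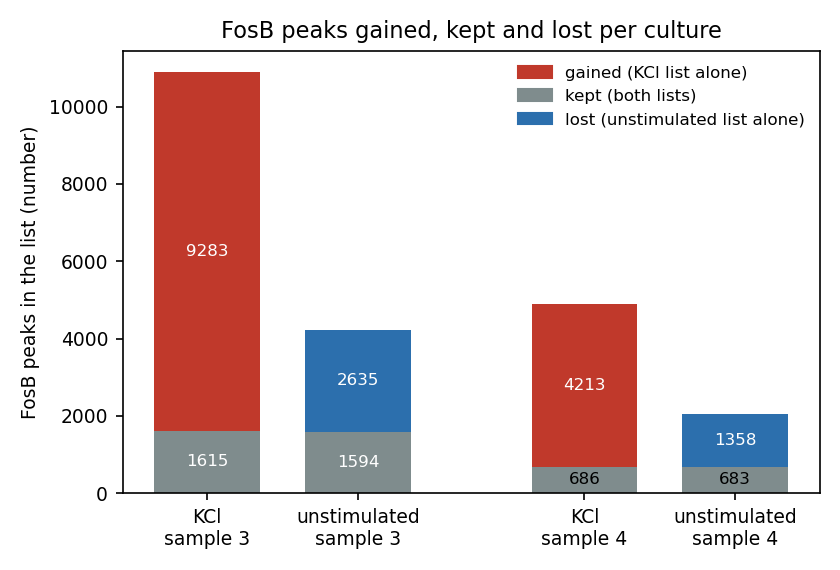
Number of FosB peaks in the KCl and unstimulated lists of biological samples 3 and 4, with each bar split into peaks found in that list alone (gained or lost) and in both lists of the sample (kept). Gained peaks are the largest part of both KCl bars (9283 and 4213), and lost peaks the larger part of both unstimulated bars (2635 and 1358).

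Within each list, peaks shared by both conditions scored higher than peaks of that list alone. A shared peak had to pass the listing threshold in both lists, which by itself favours higher scores. The score is the authors' own value for a peak and is higher the smaller the peak's p-value, with 50 as the lowest listed. Kept peaks had a median KCl score of 109 in culture 3 and 106 in culture 4. Gained peaks had medians of 72.0 and 66.1, and lost peaks 56.3 and 59.6 in their unstimulated lists. In those unstimulated lists, the peaks that overlapped a KCl peak had medians of 80.7 and 102.9, and 34.5% and 51.4% of them reached 100. Scores of KCl and unstimulated lists are not on one scale, so gained and lost peaks are not ranked against each other. Scores of at least 100 were reached by 29.2% and 24.3% of gained peaks, 54.8% and 53.5% of kept peaks, and 3.87% and 15.6% of lost peaks. Lost peaks therefore sat close to the listing threshold, most of all in culture 3. Among unstimulated peaks with scores of at least 100, 102 of 652 were lost in culture 3 and 212 of 563 in culture 4. Most of these stronger unstimulated peaks thus overlapped a KCl peak of some score. Kept peaks were also the widest, with medians of 201 and 183 bp for gained, 269 and 232 bp for kept, and 157 and 165 bp for lost peaks.

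The strongest KCl peaks were still mostly gained. When the KCl peaks of each culture were ranked by score and divided into 5 bins of equal size, kept peaks made up 29.2% of the top bin in culture 3 and 29.7% in culture 4. In the lowest bin they made up 6.98% and 5.21%. Within kept peaks, KCl scores exceeded unstimulated ones in culture 3 (medians 109 after KCl and 82.5 unstimulated, higher after KCl at 1046 of 1615 peaks) but were level with them in culture 4 (medians 106 and 105, higher at 335 of 686). Scores depend on the depth of each list, so this difference between cultures is given without a test.

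The cultures shared more of their KCl peaks than of their unstimulated ones. Of the KCl peaks, 19.9% of those of culture 3 overlapped one of culture 4, and 44.5% of those of culture 4 overlapped one of culture 3. Of the unstimulated peaks, 5.49% of those of culture 3 and 11.5% of those of culture 4 were found in the other culture. The KCl lists were also longer and wider (median 208 and 187 bp, against 176 and 178 bp unstimulated). Longer and wider lists overlap more of any set of peaks, so the conditions are not on equal terms. Gained peaks were gained again in the other culture at 19.4% (culture 3) and 43.0% (culture 4), kept peaks were kept again at 9.23% and 22.01%, and lost peaks were lost again at 1.67% and 3.09%. Gained peaks thus returned in their own class most often, and lost peaks hardly did, but a larger class is met more often. Cultures 3 and 4 held 9283 and 4213 gained, 1615 and 686 kept, and 2635 and 1358 lost peaks. Kept peaks of culture 4 were gained in culture 3 at 27.7%, more often than they were kept there. Those of culture 3 were gained in culture 4 at 2.04%, less often than they were kept. Counting any peak of the other culture's KCl list, 21.5% (culture 3) and 43.7% (culture 4) of gained peaks were found there, and 11.3% and 49.6% of kept peaks, so in culture 4 the kept share was the higher. Outside H3K27ac peaks, a group described further on, kept peaks of culture 3 were found at 68.3% and gained ones at 30.1%. Recurrence followed the score: gained peaks of the top bin were found in the other KCl list at 53.3% (culture 3) and 81.7% (culture 4), those of the lowest bin at 8.98% and 24.5%.

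The cultures differed in where their peaks lay. H3K27ac peaks were taken from lists that merge biological samples 1 and 2, separate cultures from those of the FosB libraries. A peak was called distal when it stood in the authors' distal list and non-distal when it stood in the list for the whole genome alone. The labels do not give the distance that makes a peak distal. In culture 3, 44.4% of KCl and 57.1% of unstimulated FosB peaks overlapped a non-distal H3K27ac peak. In culture 4 these shares were 5.10% and 3.58%. The 2 c-Fos sc52 lists of unstimulated neurons had 65.1% and 68.4% of their peaks there, the 2 c-Fos lists with c-Fos shRNA 65.8% and 77.5%, and the JunB list of unstimulated culture 4 had 1.38%. In the FosB lists of biological samples 5 and 6 the share was 18.05% and 5.14% under FosB shRNA, and 19.0% and 3.51% under control shRNA. The non-distal share of FosB peaks thus differed more between the cultures than between the conditions, and values are given by culture and, for the main results, by place.

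Gained peaks lay in distal H3K27ac peaks at 23.5% in culture 3 and 32.3% in culture 4, in non-distal ones at 37.7% and 5.48%, and in none at 38.7% and 62.2%. The 3504 non-distal gained peaks of culture 3 were found in the KCl FosB list of culture 4 at 3.77%. Its distal ones were found there at 35.6% and those in none at 30.1%. Gained peaks of culture 4 were found in the KCl list of culture 3 at 64.1% (231 non-distal), 52.1% (distal) and 37.6% (none). Kept peaks of culture 3 lay in distal peaks at 5.02%, in non-distal ones at 82.5% and in none at 12.5%. Kept peaks of culture 4 lay there at 28.1%, 2.77% and 69.1%. Kept peaks were therefore mainly non-distal in culture 3 and mainly outside H3K27ac peaks in culture 4. Whether a listed kept peak reflects FosB itself was not tested. Lost peaks lay in distal peaks at 7.67% and 24.4%, in non-distal ones at 41.9% and 3.90%, and in none at 50.5% and 71.6%. The distal share was higher among gained than among lost peaks in both cultures. It was also higher among strong gained peaks, at 31.4% and 42.8% in the top score bin against 19.5% and 24.5% in the lowest.

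**Figure D2:**
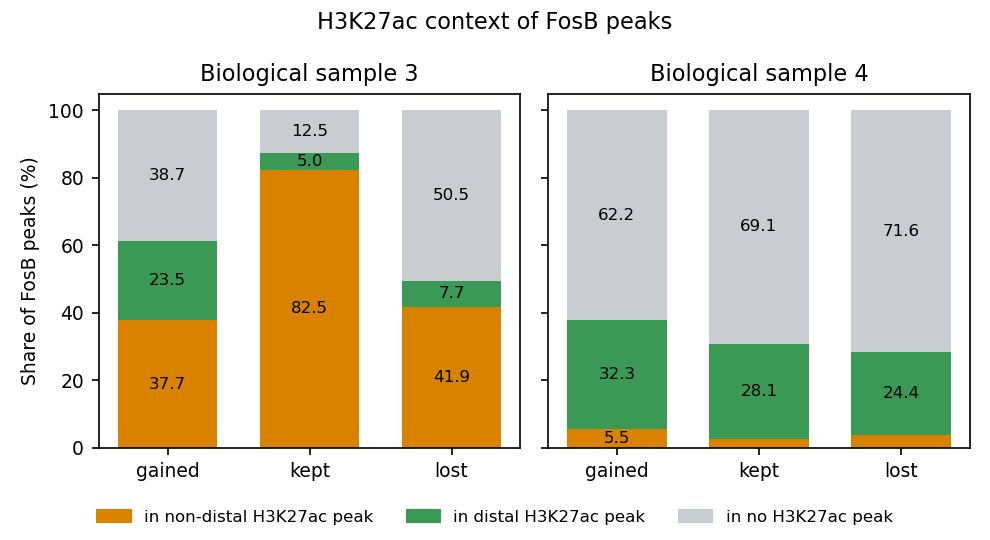
Share of gained, kept and lost FosB peaks (percent of each class) in a non-distal H3K27ac peak, in a distal one and in none, for biological samples 3 and 4. Kept peaks of sample 3 are 82.5% non-distal and those of sample 4 are 2.77%.

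Within one kind of place, the gained share was above 70% everywhere. At distal H3K27ac peaks 96.4% of the KCl FosB peaks of culture 3 and 87.6% of those of culture 4 were gained. Outside H3K27ac peaks the shares were 94.7% and 84.7%, and in non-distal ones 72.5% and 92.4%. Without the peaks in non-distal H3K27ac peaks, a setting chosen after seeing the data, the gained share was 95.3% in culture 3 and 85.7% in culture 4 and the lost share 84.4% and 66.3%.

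Among distal H3K27ac peaks, FosB was gained most often at those listed after KCl alone. Among all 24428 distal H3K27ac peaks, 8.24% held a gained FosB peak of culture 3 and 5.19% one of culture 4. Of the 4824 listed after KCl alone, 11.9% (11.1 to 12.9%) held one of culture 3 and 8.69% (7.92 to 9.51%) one of culture 4. Of the 13732 listed in both conditions the shares were 9.35% and 5.42%, and of the 5872 listed in silenced neurons alone 2.59% and 1.81%. The order was the same in both cultures. The peaks listed in both conditions were wider (median 2393 bp) than those of KCl alone (1837 bp) and of silenced neurons alone (1774 bp), and thus had more room for a FosB peak.

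Lost FosB peaks showed another order. Among all distal H3K27ac peaks, 0.831% held a lost peak of culture 3 and 1.27% one of culture 4. Those listed after KCl alone held one at 0.352% and 0.456%, those listed in both conditions at 1.17% and 1.58%, and those listed in silenced neurons alone at 0.443% and 1.23%. In both cultures the silenced-alone regions held lost FosB peaks more often than the KCl-alone ones, though in culture 3 the counts were 26 and 17 and their intervals overlapped. Kept peaks were found at 0.311% and 0.761% of all distal H3K27ac peaks. Non-distal H3K27ac peaks, 11095 in number, held a gained peak at 26.9% in culture 3 and 1.92% in culture 4, a kept one at 10.9% and 0.153%, and a lost one at 9.18% and 0.46%.

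Inside distal KCl H3K27ac peaks, gained FosB peaks lay near the middle. Their centres were a median of 20.9% (culture 3, 2013 centres) and 18.9% (culture 4, 1236 centres) of the way from the centre of the H3K27ac peak to its edge. Kept peaks in those regions lay at 17.6% (76 centres) and 17.8% (166 centres), and lost peaks at 27.3% (177 centres) and 20.5% (250 centres). Kept peaks had the lowest medians, on few centres and by a narrow margin in culture 4, and this order was not tested.

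FosB was listed at more enhancers after KCl in both cultures. The authors' list holds 11830 distal sites with the coactivator CBP and the enhancer mark H3K4me1, given as single positions, and 4 lists sort some of them by H3K27ac behaviour after KCl. Across all 11830, FosB was gained at 13.8% in culture 3 and 8.89% in culture 4, kept at 0.118% and 1.32%, and lost at 0.203% and 1.85%. It was gained in both cultures at 611 enhancers (5.16%), kept in both at 9 (0.0761%) and lost in both at 12 (0.101%), and it was gained in at least 1 culture at 2077 (17.6%). FosB at these enhancers was thus listed almost wholly after KCl in culture 3, and mostly so in culture 4.

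Increasing enhancers, those that gain H3K27ac after KCl, had the highest FosB coverage. Of 1468 increasing enhancers, 23.6% and 16.3% lay in a KCl FosB peak of cultures 3 and 4, against 0.136% and 1.29% in an unstimulated one. Of 1886 enhancers with no H3K27ac, 13.2% and 10.5% did after KCl, against 0.954% and 5.04% unstimulated. Each KCl list stood above each unstimulated list in both classes. Of 800 constant enhancers, 11.3% and 6.88% were covered after KCl, against none unstimulated in culture 3, which allows up to 0.375%, and 3.25% in culture 4. Of 738 decreasing enhancers, which lose H3K27ac, 7.45% and 6.23% were covered after KCl, against 0.136% and 4.20% unstimulated. Here too the conditions did not overlap, but the gap within culture 4 was narrow.

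The gain over unstimulated neurons was 19.2 ± 5.97 percentage points at increasing enhancers, 8.85 ± 4.80 at those with no H3K27ac, 7.44 ± 5.39 at constant and 4.67 ± 3.74 at decreasing ones (SD of the 2 paired differences). At all enhancers it was 10.3 ± 4.66 points. Exact two-sided permutation tests gave p = 0.33 for each class, again the smallest possible with 2 libraries against 2. Longer lists cover more of any set of positions, and the KCl lists were 2.58 and 2.40 times as long as the unstimulated ones. With FosB lists of equal length in a culture, the difference was 11.955 ± 3.90 points at increasing enhancers. It was 3.29 ± 3.52 at those with no H3K27ac and 3.25 ± 3.18 at constant ones. At decreasing enhancers it was 1.49 ± 3.45, and its sign differed between the cultures.

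**Figure D3:**
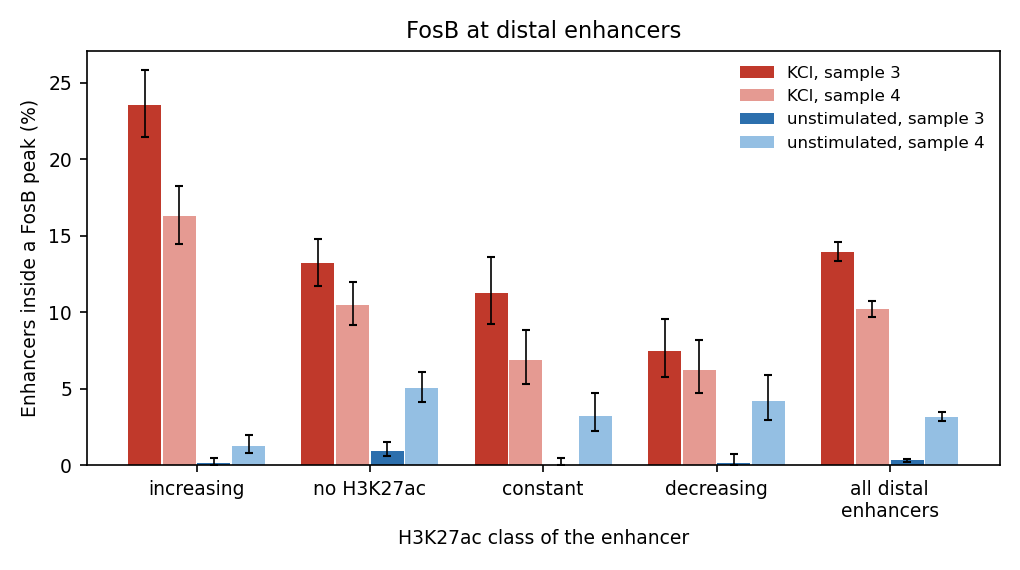
Percent of enhancers of each H3K27ac class, and of all distal enhancers, inside a FosB peak of each KCl and unstimulated library, with Wilson 95% intervals as error bars. Increasing enhancers are covered at 23.6% and 16.3% after KCl, against 0.136% and 1.29% in unstimulated neurons, and decreasing ones at 7.45% and 6.23%, against 0.136% and 4.20%.

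Increasing enhancers were covered more than those with no H3K27ac in both KCl lists, and less in both unstimulated lists. After KCl, coverage of increasing enhancers was 3.16 and 2.61 times that of decreasing ones in cultures 3 and 4, 2.10 and 2.37 times that of constant ones and 1.79 and 1.55 times that of enhancers with no H3K27ac. In the unstimulated list of culture 4, increasing enhancers were covered at 0.308 times the share of decreasing, 0.398 times that of constant and 0.257 times that of enhancers with no H3K27ac. The unstimulated list of culture 3 covered 2 increasing, 0 constant, 1 decreasing and 18 enhancers with no H3K27ac, too few to order the first 3. The KCl lists of the shRNA cultures kept increasing enhancers highest: they were covered with FosB shRNA at 26.6% and 18.5%, decreasing ones at 17.2% and 9.89%, and with control shRNA at 56.9% and 38.3%, decreasing ones at 28.7% and 15.2%.

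Gains found again in the second culture were weighted further to increasing enhancers. FosB was gained in both cultures at 156 increasing enhancers (10.6%), 89 with no H3K27ac (4.72%), 25 constant (3.13%) and 12 decreasing ones (1.63%). Losses in culture 4 were least frequent at increasing enhancers, at 7 increasing (0.477%), 56 with no H3K27ac (2.97%), 17 constant (2.13%) and 18 decreasing enhancers (2.44%). In culture 3 too few enhancers lost FosB to compare. Increasing enhancers made up 21.1% and 21.6% of the enhancers that gained FosB, against 12.4% of all enhancers. Those in none of the 4 class lists made up 55.4% and 55.8%, near their 58.6% of all enhancers.

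Gained peaks were largely sites of c-Fos as well. A c-Fos peak from the KCl neurons of the same culture, with either antibody (sc52 or sc7202), overlapped 85.4% of gained peaks in culture 3 and 75.6% in culture 4. For kept peaks these shares were 86.6% and 61.1%, and for lost peaks 28.01% and 12.7%. Lost FosB peaks thus had c-Fos after KCl less often than the other classes, but the share varied with place. With sc52, it was listed at 48.8% of lost peaks of culture 3 in non-distal H3K27ac peaks, and at 3.83% of those outside H3K27ac peaks. In culture 4 these shares were 18.9% and 4.62%. Place mattered for gained peaks too. In culture 3, sc52 was listed at 73.0% of non-distal gained peaks, 86.2% of distal ones and 77.9% of those in none. For sc7202 these shares were 50.3%, 90.3% and 84.2%. In culture 4 they were 50.2%, 59.3% and 47.7% with sc52, and 69.3%, 81.1% and 70.3% with sc7202. No KCl c-Fos peak of either antibody was listed at 1358 and 1026 gained peaks. Without stimulation, c-Fos was listed at 12.5% and 1.76% of gained, 53.2% and 31.6% of kept, and 14.8% and 8.69% of lost peaks. The sc52 and sc7202 lists held 22368 and 28885 peaks after KCl in culture 3, and 6808 and 16270 in culture 4. Unstimulated lists were shorter, at 3669 and 1770 peaks in culture 3 and 1891 and 557 in culture 4, and shorter lists overlap fewer of any set of peaks. Kept peaks were the class at which c-Fos was most often listed in silenced neurons.

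JunB, a Jun partner of FosB, was measured in culture 4 alone. Of gained peaks there, 82.1% overlapped a JunB peak after KCl and 6.74% one in unstimulated neurons. Of kept peaks, 79.4% did after KCl and 66.2% unstimulated. Of lost peaks, 32.9% did after KCl and 33.8% unstimulated. JunB was listed after KCl alone at 75.9% of gained peaks, and in both conditions at 59.2% of kept peaks. The JunB list held 19346 peaks (median width 680 bp) after KCl and 3126 (226 bp) in unstimulated neurons. Longer and wider lists overlap more of any set of peaks, so the conditions are not on equal terms here. At lost peaks it was in both conditions at 20.5%, in silenced neurons alone at 13.3% and in neither at 53.8%.

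The authors' combined c-Fos sites, single positions, fell close to gained peaks. Within 1000 bp of the peak centre there was such a site for 44.8% of gained peaks in culture 3 and 61.4% in culture 4, at a median distance of 51 and 58 bp. For kept peaks the shares were 3.34% and 22.2%, and for lost peaks 1.56% and 5.596%. The combined list itself is one of c-Fos sites; the labels do not say how its sites were chosen.

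The shRNA lists address whether peaks are listed less often when FosB is knocked down. With FosB shRNA the FosB lists held 9941 and 7180 peaks in biological samples 5 and 6, and the control shRNA lists 22933 and 14139. The control lists were longer and, in sample 5, wider (median 221 bp with FosB shRNA and 767 bp with control shRNA), and longer and wider lists overlap more of any set of peaks. Gained peaks of culture 3 were found at 33.6% and 20.6% under FosB shRNA, against 71.2% and 41.0% under control shRNA. Gained peaks of culture 4 were found at 45.3% and 42.4% under FosB shRNA, against 72.3% and 69.2% under control shRNA. In all 4 comparisons fewer gained peaks were listed with FosB shRNA. These comparisons are not independent, since the lists of samples 5 and 6 were each used for both cultures.

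Kept peaks of culture 4 were found at least as often under FosB shRNA. There 80.9% and 86.9% were found under FosB shRNA, against 79.2% and 71.6% under control shRNA. Kept peaks of culture 3 were found at 32.4% and 13.6% under FosB shRNA, against 64.5% and 11.8% under control shRNA. These pooled values of culture 3 are mostly those of its 1332 kept peaks in non-distal H3K27ac peaks, found at 25.2% and 3.98% under FosB shRNA, against 63.4% and 3.53% under control shRNA. Its 202 kept peaks outside H3K27ac peaks were found at 77.7% and 73.3% under FosB shRNA, against 71.8% and 62.9% under control shRNA. The 474 such peaks of culture 4 were found at 75.3% and 86.3%, against 75.5% and 74.7%. Outside H3K27ac peaks the kept peaks of the cultures were thus alike in being listed about as often, or more often, under FosB shRNA. Gained peaks there were found at 38.0% and 29.2% in culture 3 and 36.9% and 39.6% in culture 4 under FosB shRNA, against 77.5% and 61.2%, and 66.0% and 67.9%, under control shRNA. Lost peaks of culture 3 were found at 3.83% and 1.82% under FosB shRNA, against 16.1% and 1.82% under control shRNA, and those of culture 4 at 31.0% and 28.9%, against 31.6% and 21.6%.

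The same comparison was made by score. In each of the 5 score bins of culture 4, kept peaks were found with FosB shRNA more often than gained peaks. In biological sample 6 under FosB shRNA, the shares were 97.3% for kept and 79.2% for gained peaks in the top bin, and 68.6% and 22.6% in the lowest. Under control shRNA in that sample they were 83.5% for kept and 97.8% for gained peaks in the top bin, and 56.9% and 46.98% in the lowest. In culture 3, with all places pooled, kept peaks were found with FosB shRNA less often than gained ones in each bin: in biological sample 5, at 50.9% for kept and 70.1% for gained peaks in the top bin, and at 12.5% and 18.1% in the lowest. This order of culture 3 did not hold within 2 of the kinds of place. Outside H3K27ac peaks its kept peaks stood above its gained ones under FosB shRNA in both samples (77.7% and 38.0%, 73.3% and 29.2%), and in non-distal peaks they did so in sample 5 (25.2% and 17.01%) and were near level in sample 6 (3.98% and 3.68%). In distal peaks the 81 kept peaks stood below (38.3% and 52.95%, 22.2% and 33.6%).

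**Figure D4:**
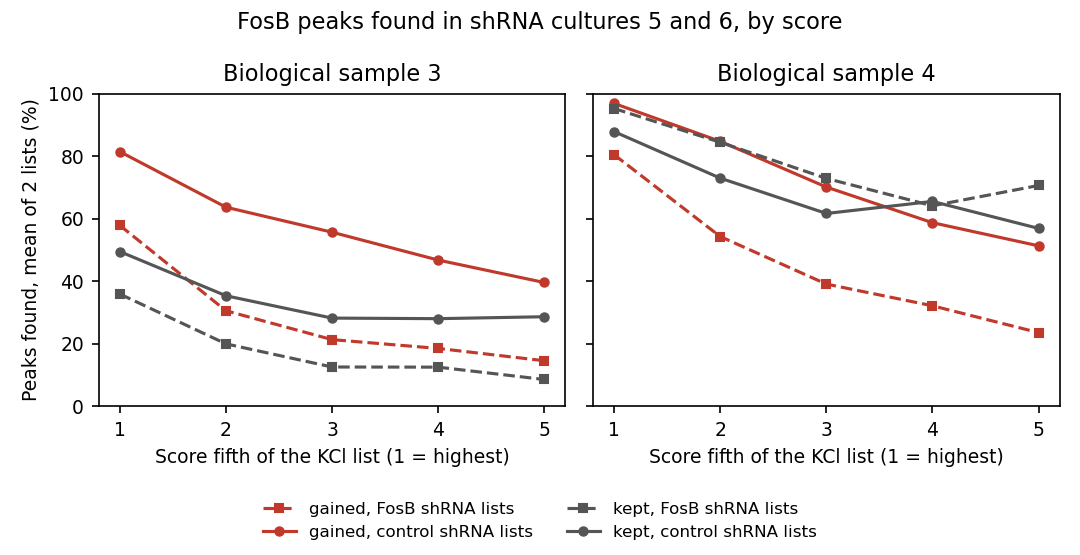
Percent of gained and kept FosB peaks of biological samples 3 and 4 found in the FosB lists with FosB shRNA (dashed) and with control shRNA (solid), each point the mean of the lists of biological samples 5 and 6, by bin of KCl score from 1 (strongest) to 5. With FosB shRNA the kept peaks lie above the gained ones in every bin of sample 4 and, with all places pooled, below them in every bin of sample 3; outside H3K27ac peaks the kept peaks of sample 3 are found more often than its gained ones (77.7% and 38.0% in biological sample 5).

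Kept peaks also differed between the cultures in c-Fos lists made with c-Fos shRNA, with all places pooled. Kept peaks of culture 3 were found there at 69.8% (biological sample 5) and 23.2% (biological sample 6), and those of culture 4 at 36.4% and 21.3%. Gained peaks of culture 3 were found at 33.4% and 6.83%, and those of culture 4 at 16.8% and 2.02%. In each culture and list kept peaks recurred more often than gained ones.

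The 4 FosB lists were merged where peaks overlapped, which gave 17343 sites. Of these, 53.3% were gained, 8.94% kept and 15.2% lost in culture 3, and 24.1%, 3.87% and 7.8% in culture 4. Sites listed in both KCl lists and neither unstimulated list numbered 1767 (10.2%), those in all 4 lists 146, and those in both unstimulated lists and neither KCl list 41. A further 53 sites were listed in the KCl list of one culture and the unstimulated list of the other, and in no other list. Sites gained in both cultures outnumbered sites lost in both, but the KCl lists were also longer and shared more of their peaks.

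**Figure D5:**
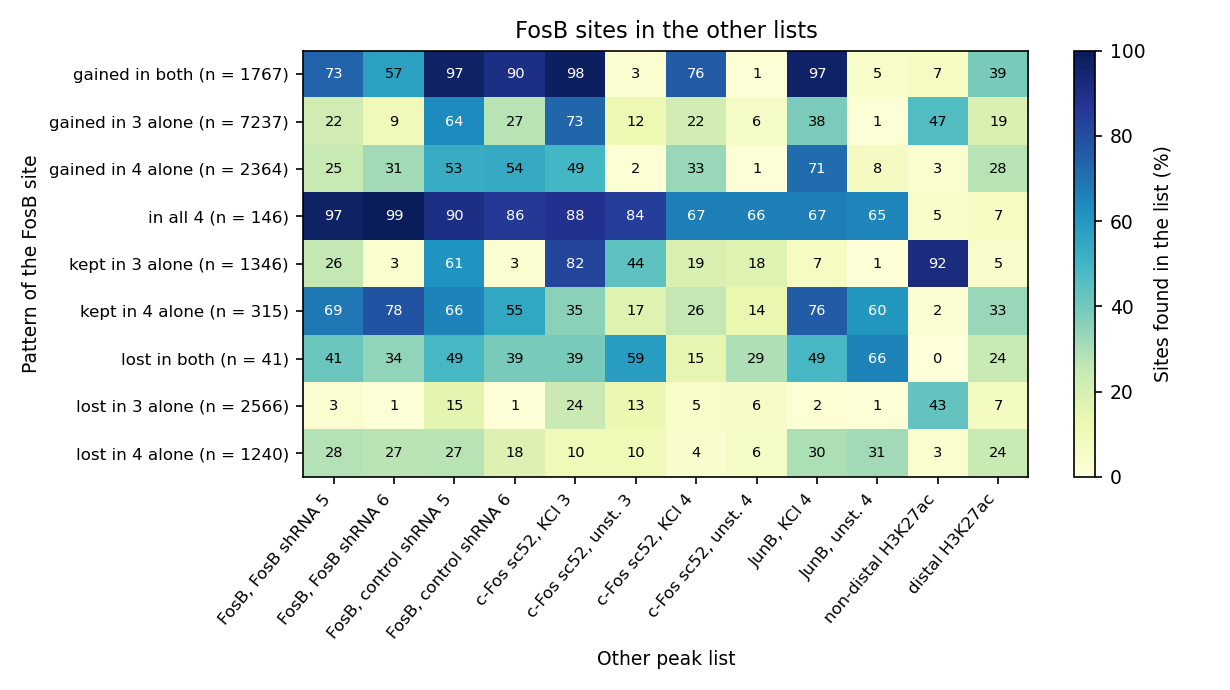
Percent of merged FosB sites of each pattern (rows, with their number) found in other peak lists (columns), with values rounded to whole percents and the number after a list giving its biological sample. The 1767 sites gained in both cultures are 38.99% distal and 7.02% non-distal, and the sites kept in sample 3 alone are 91.7% non-distal.

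The sites gained in both cultures were mostly outside H3K27ac peaks or in distal ones. Of the 1767, 38.99% lay in distal H3K27ac peaks, 7.02% in non-distal ones and 54.0% in none. H3K27ac was listed after KCl alone at 16.2%, in both conditions at 28.01% and in silenced neurons alone at 1.81%. They were found at 73.2% and 57.1% under FosB shRNA, against 97.2% and 90.3% under control shRNA. JunB was listed at 96.8% of them after KCl and 5.26% in unstimulated neurons, and c-Fos sc7202 at 99.0% and 95.1% after KCl in cultures 3 and 4. An enhancer of the authors' list lay in 731 of them (41.4%), of which 188 sites held an increasing, 107 a no-H3K27ac, 31 a constant and 13 a decreasing one.

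The 146 sites in all 4 lists were of another kind. Of these, 88.4% lay in no H3K27ac peak and 6.85% held an enhancer. They were found at 97.3% and 99.3% under FosB shRNA, against 90.4% and 85.6% under control shRNA, and at 72.6% and 59.6% in the c-Fos lists with c-Fos shRNA. c-Fos sc52 was listed in unstimulated neurons at 84.2% of them in culture 3 and 66.4% in culture 4, and JunB at 65.1%. Their listing under each condition, shRNA and antibody was not tested against any cause.

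The 1346 sites kept in culture 3 and in neither list of culture 4 lay in non-distal H3K27ac peaks at 91.7%, and 2 held an enhancer. They were found at 69.2% and 18.9% with c-Fos shRNA. The 315 sites kept in culture 4 and in neither list of culture 3 lay in none at 64.8% and in distal peaks at 33.02%. Of these 315, 30.2% held an enhancer, 68.6% and 78.4% were found under FosB shRNA, against 65.7% and 54.9% under control shRNA, and 60.3% had JunB in unstimulated neurons. The kept sites of the cultures thus differed in place and in the lists they recurred in.

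Single sites show these patterns, in mm9 coordinates counted from 1. The top-ranked site gained in both cultures spans 66310697 to 66311597 on chromosome 17. Its scores were 3100, near the highest a list gives, in culture 3 and 2387 in culture 4 after KCl, and it was in neither unstimulated FosB list. It lay in no H3K27ac peak, was in all 4 KCl c-Fos lists and no unstimulated one, and was in both FosB shRNA and both control shRNA lists. Next in rank were chromosome 13 from 45719055 to 45719706 (scores 1983 and 1378), chromosome 15 from 95106901 to 95107502 (1650 and 1154), chromosome 13 from 58755338 to 58756484 (2903 and 687) and chromosome 8 from 39820215 to 39820724 (915 and 635). None of these 5 sites overlapped an H3K27ac peak or held an enhancer, and each had JunB after KCl and not in unstimulated neurons.

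Among the 188 sites gained in both cultures at an increasing enhancer, the highest-ranked lay on chromosome 6 from 70822048 to 70822691. Its KCl scores were 1013 in culture 3 and 537 in culture 4, and it lay in a KCl H3K27ac peak with a score of 244 and in no unstimulated one. The next 4 were on chromosome 3 from 50999159 to 50999779 (495 and 491), chromosome 4 from 87630540 to 87631007 (617 and 381), chromosome 2 from 93892000 to 93892547 (568 and 319.9) and chromosome 6 from 112974829 to 112975317 (410.3 and 331). Each lay in a distal H3K27ac peak listed after KCl and in none listed in silenced neurons, and each was in both FosB shRNA and both control shRNA lists. All 5 had JunB after KCl and not in unstimulated neurons.

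Among the sites in all 4 lists, the highest-scoring were neighbours on chromosome 17, from 39979854 to 39983898 and from 39984104 to 39985799. Both scored 3100 in each of the 4 FosB lists without shRNA, after KCl and unstimulated, and both were in 21 of the 22 AP-1 lists. On chromosome 2, the site from 98506357 to 98507497 scored 2385 and 2996 after KCl, against 2453 and 2991 unstimulated, and its neighbour from 98502384 to 98503171 scored 1911 and 2401, against 1822 and 2349. Both were in all 22 lists. On chromosome 11, the site from 108872866 to 108873463 scored 1818 and 1993 after KCl, against 1934 and 1972 unstimulated, and was in 20 lists. The scores of these 5 sites were near level between the conditions, and none lay in an H3K27ac peak. All 5 were also in both FosB shRNA lists and in both c-Fos lists with c-Fos shRNA. Whether the signal at these sites comes from FosB was not tested.

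Sites lost in both cultures were weak by comparison. The highest-ranked, on chromosome 4 from 150726381 to 150726730, scored 163 and 148 in the unstimulated lists, held an enhancer with no H3K27ac, and was in both control shRNA lists after KCl. The others lay on chromosome 9 from 65043893 to 65044423 (144 and 108), chromosome 4 from 150553051 to 150553405 (81.6 and 203), chromosome 4 from 134981528 to 134981862 (91.8 and 119.7) and chromosome 5 from 122513539 to 122513923 (66.9 and 316). All 5 were in at least 1 FosB list made after KCl with control shRNA.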

How the data were processed

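FosB, c-Fos, JunB and H3K27ac were measured by ChIP-seq. The authors aligned reads to mm9 with BWA (version not stated), per the submitters' processing notes. The deposited lists hold, for each peak, a score that the authors' peak caller, MACS per the peak names, derived from its p-value, and the lowest score of 50 stands for 1e-05. Each AP-1 list was made from 1 library and the H3K27ac lists from biological samples 1 and 2 merged, per the labels. The lists hold no reads, so depth and the precision it gives are unknown. Enhancers and combined c-Fos sites are single positions.

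Groups and the pairing of libraries came from the biological sample numbers in the labels. The labels do not say that samples came from separate animals, so p-values refer to these samples alone. A p at the floor of its test is the same for a small and a large gap, and measures neither gap nor spread. Overlap of 1 bp defined shared peaks, Wilson 95% intervals covered counting error, and the floor of a count of 0 was 3. Library values were compared by exact two-sided permutation tests, with exact sign-flip tests as the paired alternative. Sites were named by rank: the 5 best mean ranks in each of 4 sets (gained in both cultures, in all 4 lists, lost in both, and gained in both at an increasing enhancer), leaving out chromosome 18. Alternatives were a score of at least 100, other overlap and distance rules, equal list lengths, autosomes, merged neighbours and leaving out each culture. Calculations used Python 3.11.15, numpy 2.4.6, scipy 1.17.1 and matplotlib 3.10.9, and the overlap code was tested on simulated intervals. Classes, lists and tests were chosen with earlier results of these data known. No mm9 genome or annotation was used here, so no sequences, motifs, nearest genes or marker genes are reported.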

Additional observations from a re-analysis of the deposited data

Results flagged for a closer look

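Increasing enhancers and those with no H3K27ac stood in opposite order in the conditions, and this difference was not tested. Coverage of increasing enhancers minus that of enhancers with no H3K27ac was 10.4 percentage points in culture 3 and 5.78 in culture 4 after KCl, against -0.82 and -3.74 in unstimulated neurons.

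FosB shRNA and control shRNA lists moved in opposite directions at the gained and the kept peaks of culture 4, and this difference too was not tested. The share found with FosB shRNA minus that with control shRNA was -26.9 points in biological sample 5 and -26.8 in biological sample 6 for gained peaks, and 1.75 and 15.3 points for kept peaks. In culture 3 it was -37.6 and -20.4 points for gained peaks and -32.1 and 1.73 points for kept peaks, pooled over place. Outside H3K27ac peaks the kept peaks of culture 3 were found more often under FosB shRNA in both samples (77.7% under FosB shRNA and 71.8% under control shRNA in sample 5, 73.3% and 62.9% in sample 6), while those in non-distal peaks were found less often in sample 5 (25.2% and 63.4%).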

How the results depend on the processing

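Of 89 alternative values for 25 shares and medians measured in both cultures, 69 moved by less than the SD over the 2 cultures and 20 moved further. For the 3 shares with JunB, measured in 1 culture, 1 of 6 alternative values stayed within the counting interval and 5 did not. The 24 alternative values for the 5 differences between conditions kept their direction on average. With 2 cultures, leaving out either moves a mean by less than 1 SD by construction, and a p of 0.33 can pass no threshold, so neither says anything about stability. Averaged over the cultures, the gained share was 86.8% with an overlap of at least 50% of the shorter peak, 77.2% with lists of equal length, and 90.5% outside non-distal H3K27ac peaks (chosen after seeing the data). The kept share was 13.2%, 22.8% and 9.51% under the same settings. The lost share was 46.5% with scores of at least 100 in both lists (36.3% in culture 3 and 56.7% in culture 4). It was 76.8% with lists of equal length and 75.3% outside non-distal H3K27ac peaks. With scores of at least 100, the median score and width were 141 and 319.5 bp for gained, 202 and 346 bp for kept, and 128 and 330.0 bp for lost peaks, which the setting itself brings about. The share with a KCl c-Fos sc7202 peak was 77.3% of gained and 44.3% of kept peaks with scores of at least 100, and 65.5% of gained, 40.2% of kept and 7.71% of lost peaks with centres within 200 bp. The share with a KCl JunB peak was 91.9% of gained and 69.0% of kept peaks with scores of at least 100, and 75.8% of gained, 68.3% of kept and 29.5% of lost peaks with centres within 200 bp. For these shares the cause was not tested.

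The log2 difference in peak number was 1.26 to 1.37 when either culture was left out, 2.46 in culture 3 and 1.31 in culture 4 with scores of at least 100, and 1.74 and 1.24 outside non-distal H3K27ac peaks. Leaving out a culture gave differences of 15.0 to 23.4 points at increasing, 5.46 to 12.2 at no-H3K27ac, 3.63 to 11.3 at constant and 2.03 to 7.32 at decreasing enhancers. With the replicate block, the pairing by biological sample, the differences were the same, 1.31 in log2 peak number and 19.2, 8.85, 7.44 and 4.67 points at those classes, with p = 0.5 in exact sign-flip tests, the lowest value 2 pairs can give. With lists of equal length the difference was 11.955 points at increasing, 3.29 at no-H3K27ac, 3.25 at constant and 1.49 at decreasing enhancers, the last with p = 1 in the exact permutation test.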

Other observations

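Most FosB peaks had no other peak of their own class within 10000 bp, and neighbours of other classes were not counted. Of gained peaks, 75.6% in culture 3 and 87.2% in culture 4 had no other gained peak within 10000 bp, and of lost peaks 88.2% and 90.8% had no other lost one. Kept peaks stood alone at 77.4% and 81.0%, but the largest run of peaks each within 10000 bp of the next held 38 kept peaks in culture 3 and 50 in culture 4, against 14 and 5 for gained peaks.

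Gained peaks found in 1 culture alone kept part of the JunB pattern. JunB after KCl, measured in culture 4, was listed at 38.3% of the 7237 sites gained in culture 3 alone and 71.2% of the 2364 gained in culture 4 alone, against 0.801% and 7.66% in unstimulated neurons. Sites gained in culture 3 alone were non-distal at 46.5% and those gained in culture 4 alone at 3.43%.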
